A study of Homo sapiens with 8 samples.

Results

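The genes for making and sensing prostaglandins and leukotrienes were examined in a list of genomic sites at which PML::RARA was detected after induction in U937-PR9 cells. The 10 genes were PLA2G4A, PTGS1, PTGS2, PTGES2, PTGES3, PTGER2, PTGER4, ALOX5, ALOX5AP and LTA4H. Their peaks were those to which the authors had assigned one of these symbols, together with every peak without a symbol whose centre lay within 50 kb of the centre of such a peak on the same chromosome. Of the 15412 peaks in the list, 12 met this rule. The symbols of 6 genes stood on 7 of them, with 2 for ALOX5AP, and the other 5 had no symbol. No peak carried the symbol of PLA2G4A, PTGS1, PTGS2 or ALOX5. Peaks with a symbol are called promoter peaks here, because the authors assigned a symbol where the apex of a peak overlapped a promoter.

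PML::RARA is the fusion of the PML protein with retinoic acid receptor alpha that drives acute promyelocytic leukaemia. U937-PR9 is a monocytic cell line derived from U937 cells, in which a zinc-inducible promoter controls a PML::RARA transgene. Cells were given 100 μM ZnSO4 (induced) or sterile water (uninduced) for 5 h, and Cut&Run, in which a nuclease tethered to an antibody releases the DNA around a bound protein, was carried out on their nuclei with anti-PML-RARA or anti-RARA antibody. This gave 8 libraries, 2 for each antibody and condition. All values below come from 1 list, obtained with anti-PML-RARA antibody after induction. The other lists were not analysed here. Every group carries the transgene, so zinc and the fusion protein cannot be told apart in this design, and the cells are 1 line. The list holds 1 value per peak for both replicates together. No spread between replicates can therefore be given, no test was run, and sequencing depth is unknown. As a check of the cell type, for which 30.0% of all protein-coding genes with a promoter peak is the background, promoter peaks were present for 8 of 11 monocytic and myeloid marker genes (SPI1, CEBPA, CEBPB, CSF1R, MPO, ELANE, ITGAM and CD14, but not CD33, LYZ or FCGR1A), and for 0 of 3 markers each of T cells, B cells and erythroid cells. With 3 markers a count of 0 is common at that background, so these sets say little about other cell types.

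Prostaglandins and leukotrienes are short-lived lipid signals that both arise from arachidonic acid. The cytosolic phospholipase encoded by PLA2G4A releases this fatty acid from membranes, after which the cyclooxygenases (PTGS1 and PTGS2) start the prostaglandin branch and 5-lipoxygenase (ALOX5), with its activating protein (ALOX5AP), starts the leukotriene branch. Monocytes and granulocytes are major sources of both, and the products act through G protein-coupled receptors on the same or neighbouring cells.

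The sequences around the apex, the position of the largest signal, are shown first for the peaks that the results below turn on. They were read from GRCh37, the build of the list (hg19), within 149 bp of the apex, and only the longest stretch outside annotated exons is given. For PTGES3 and the more downstream promoter peak of ALOX5AP, that stretch does not include the apex itself. Capitals mark 3 motifs searched on both strands, which do not overlap in these stretches. The first is the 6-base motif of retinoid receptors, spelled AGGTCA, with its variants GGGTCA and AGTTCA and, joining both changes, GGTTCA. The second is an ETS-type motif, AGGAAGT and the variant that begins with G (GGGAAGT). The third is the GC box, GGGCGG. On the plus strand shown, a motif of the other strand reads as its reverse complement, such as TGACCT for the retinoid motif. The promoters of the prostaglandin E synthases and receptors come first, because all 4 hold a GC box and 2 of them a retinoid motif.

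PTGES2, chr9:130890084-130890333, plus strand: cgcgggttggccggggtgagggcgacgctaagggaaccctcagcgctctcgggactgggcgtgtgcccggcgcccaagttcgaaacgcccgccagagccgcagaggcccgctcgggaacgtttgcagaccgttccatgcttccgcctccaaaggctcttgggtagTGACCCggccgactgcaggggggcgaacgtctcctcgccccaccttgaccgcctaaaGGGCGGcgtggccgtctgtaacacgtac
PTGES3, chr12:57082193-57082274, plus strand: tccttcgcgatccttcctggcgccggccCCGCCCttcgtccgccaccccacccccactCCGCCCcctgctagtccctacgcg
PTGER2, chr14:52780818-52781022, plus strand: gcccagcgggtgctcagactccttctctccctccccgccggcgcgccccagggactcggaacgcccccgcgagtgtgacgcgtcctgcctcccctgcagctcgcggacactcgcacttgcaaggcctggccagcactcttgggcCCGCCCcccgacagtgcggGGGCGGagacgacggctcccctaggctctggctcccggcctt
PTGER4, chr5:40679408-40679687, plus strand: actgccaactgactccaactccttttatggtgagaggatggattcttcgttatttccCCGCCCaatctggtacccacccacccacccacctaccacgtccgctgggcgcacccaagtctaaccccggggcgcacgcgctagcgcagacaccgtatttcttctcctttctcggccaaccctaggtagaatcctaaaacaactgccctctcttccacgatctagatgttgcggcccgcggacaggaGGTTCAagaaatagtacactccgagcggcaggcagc

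The promoter peaks of ALOX5AP and LTA4H, of the leukotriene branch, are shown next, because each holds an ETS-type motif and none a GC box. The more upstream of the pair of ALOX5AP promoters is named ALOX5AP-A and the other ALOX5AP-B.

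ALOX5AP-A, chr13:31287352-31287614, plus strand: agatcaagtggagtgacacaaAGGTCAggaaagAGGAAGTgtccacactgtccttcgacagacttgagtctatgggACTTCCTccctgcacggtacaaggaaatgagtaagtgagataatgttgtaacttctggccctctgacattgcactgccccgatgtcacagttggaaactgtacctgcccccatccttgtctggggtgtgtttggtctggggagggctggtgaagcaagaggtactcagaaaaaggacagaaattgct
ALOX5AP-B, chr13:31309548-31309679, plus strand: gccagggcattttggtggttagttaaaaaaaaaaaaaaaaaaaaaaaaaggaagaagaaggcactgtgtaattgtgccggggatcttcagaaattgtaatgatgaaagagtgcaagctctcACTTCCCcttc
LTA4H, chr12:96429420-96429635, plus strand: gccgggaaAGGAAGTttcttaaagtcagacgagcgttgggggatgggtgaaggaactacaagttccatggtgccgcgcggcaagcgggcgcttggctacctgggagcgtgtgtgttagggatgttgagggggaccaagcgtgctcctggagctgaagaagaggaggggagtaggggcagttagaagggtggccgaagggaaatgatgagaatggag

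Lastly, 2 sites without a symbol are shown. They are a peak inside ALOX5, where the retinoid and ETS-type motifs lie side by side at the apex, and the strongest peak within ALOX5AP that is not at a promoter.

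ALOX5 intron 6, chr10:45920581-45920760, plus strand: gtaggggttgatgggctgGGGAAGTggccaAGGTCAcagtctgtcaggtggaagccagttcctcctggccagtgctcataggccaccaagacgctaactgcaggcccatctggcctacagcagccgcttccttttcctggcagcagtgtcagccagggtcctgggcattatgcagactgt
ALOX5AP intron 2, chr13:31318534-31318818, plus strand: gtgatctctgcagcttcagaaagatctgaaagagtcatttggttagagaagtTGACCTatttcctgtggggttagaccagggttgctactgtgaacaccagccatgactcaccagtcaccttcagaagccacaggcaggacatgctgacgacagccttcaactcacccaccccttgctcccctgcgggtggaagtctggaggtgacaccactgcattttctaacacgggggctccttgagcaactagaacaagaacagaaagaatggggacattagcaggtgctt

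Across the 10 genes, promoter peaks were found for 6, compared with 30.0% of the 20090 protein-coding genes of the annotation. By distance alone, the same number of genes, 6 of 10, had an apex within 1 kb of one of their start sites, which held for 39.3% of protein-coding genes. If any peak inside a gene or up to 10 kb from its ends was counted, 7 of 10 had one, against 53.3% of protein-coding genes. The map of peaks by distance from each gene shows the single added gene, ALOX5, with peaks only within its body. The genes were chosen with results of these data known, so these counts describe the members and no test was made of them. The largest signal of a peak is called its height and has no unit. Over the 7 promoter peaks, heights ran from 17 to 47 (median 30) and widths from 600 to 3459 bp (median 1301 bp). All 7169 promoter peaks of the list had a median height of 26 and a median width of 1108 bp. The whole list had a median height of 25, and 4 of the 7 reached it, as did 56.4% of all promoter peaks. The list median of 829.5 bp in width was reached by 6 of the 7, as by 70.9% of all promoter peaks.

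**Figure D1:**
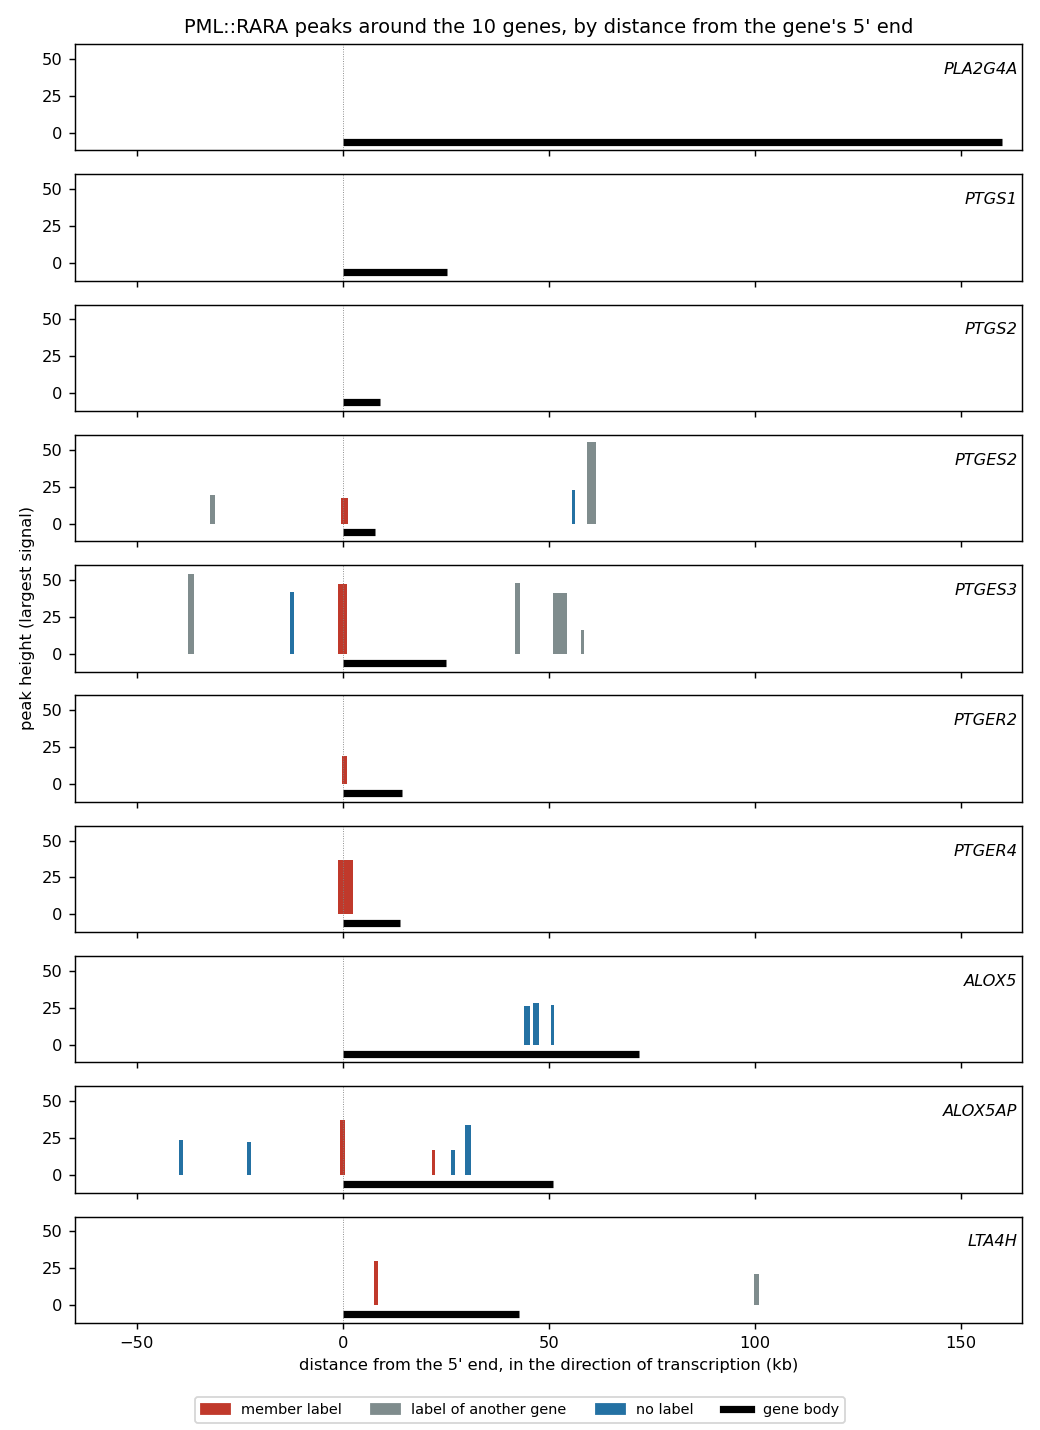
Peaks within 60 kb of each of the 10 genes. The x axis gives the distance from the 5′ end of the gene in kb along the direction of transcription and the y axis the height of each peak, with bars drawn at least 0.8 kb wide, red for peaks with the gene's own symbol, grey for those with another symbol and blue for those without one, above a black line for the gene body. PLA2G4A, PTGS1 and PTGS2 have no peak in this range, ALOX5 has 3 within its body only, and ALOX5AP has 6.

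At the first step, release of arachidonic acid, no peak lay over PLA2G4A (ENSG00000116711, plus strand, chr1:186798081-186958113). The nearest peak was 452928 bp away. Both cyclooxygenases, which convert arachidonic acid to the precursor of all prostaglandins and thromboxane, were also without a peak. PTGS2 (ENSG00000073756, minus strand, chr1:186640923-186650054), the inducible enzyme, was 295770 bp from the nearest peak. It lies beside PLA2G4A, and both fell in the same stretch of 6682528 bp without any peak. This was the 39th longest of the 15389 stretches between neighbouring peaks, and it holds 11 protein-coding genes. PTGS1 (ENSG00000095303, plus strand, chr9:125132809-125157982), the constitutive enzyme, was 276976 bp from the nearest peak, in a peak-free stretch of 734535 bp. That stretch ranked 746 by length and holds 20 protein-coding genes, many of them olfactory receptor genes. Since the list contains only peaks that passed the authors' thresholds, the absence of a peak does not show an absence of binding.

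Of the enzymes that turn the cyclooxygenase product into prostaglandin E2, PTGES2 and PTGES3 are among the 10 genes. PTGES2 encodes a membrane-associated synthase and PTGES3 a cytosolic one that is also known as p23, a co-chaperone of HSP90. Their promoter peaks stood at nearly opposite ends of the list in height. The PTGES3 peak (chr12:57081179-57083396) was 47 high and 2218 bp wide. It was the highest of the 12 peaks, at rank 890 of 15412 by height, a value shared by 99 peaks, and at rank 710 by width. Its apex was 34 bp downstream of the nearest annotated start site of PTGES3 and 57 bp upstream of that of the canonical transcript. The PTGES2 peak (chr9:130889576-130891111) had a height of 17, at rank 13294 by height with 984 peaks sharing that value, but its width of 1536 bp put it at rank 2380 by width. In the plot of height against width, PTGES3 is in the upper part of the cloud and PTGES2 near its lower edge, while in width both are to the right of the median.

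The PTGES2 peak was also flat at its top. The largest signal extended over 331 bp, longer than in 99.2% of the peaks when ties are split evenly, whereas for PTGES3 it was confined to 1 bp. The mean signal over the peak was 45.7% of the height for PTGES2 and 28.6% for PTGES3. The midpoint of the PTGES2 plateau was 160 bp downstream of the nearest annotated start site and 225 bp upstream of the canonical one. The peak held 15 annotated start sites, those of PTGES2 and of its antisense neighbour PTGES2-AS1, so the signal cannot be assigned to one of the pair. PTGES2 contained 1 retinoid motif, centred 18 bp from the apex (TGACCC in the sequence above). PTGES3 contained no retinoid motif and 4 GC boxes within 150 bp of the apex, of which 2 are in the stretch shown.

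Around PTGES3, a second peak without a symbol (chr12:57094572-57094949) lay upstream of the closest start site, by 12466 bp. It had a height of 42, rank 1553, but a width of only 378 bp, rank 13666. It was thus among the higher peaks and the narrower peaks of the list at once. A search with 30 bases holding its retinoid motif found 26 copies in the genome. The same search found 1 copy for each retinoid motif of the other peaks. Within 50 kb of the PTGES3 promoter peak there were also promoter peaks of SNORD59A (height 48, centre 42522.5 bp away) and NACA (height 54, 36748.5 bp away), both at similar heights to that of PTGES3. NACA encodes a subunit of the nascent polypeptide-associated complex and SNORD59A a small nucleolar RNA. Near PTGES2, the promoter peak of C9orf16, 31972.5 bp away, had a height of 19.

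**Figure D2:**
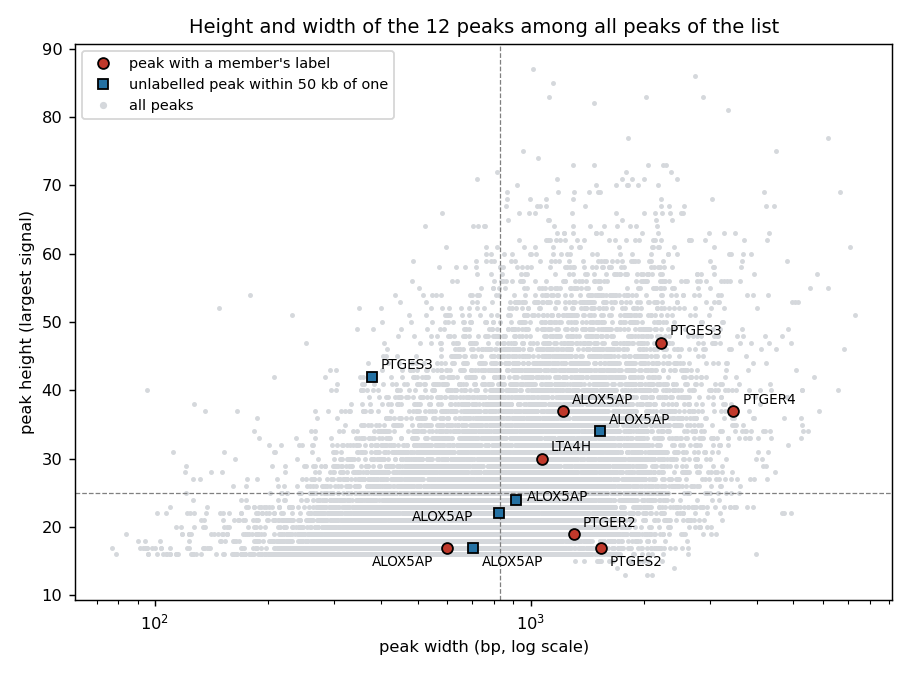
Height against width of the 12 peaks (red circles, promoter peaks; blue squares, peaks without a symbol within 50 kb of one) among all 15412 peaks (grey points). The x axis is the peak width in bp on a log scale, the y axis is the largest signal of the peak, and dashed lines mark the medians of the list at 829.5 bp and 25. PTGER4 is towards the right at 3459 bp, PTGES3 is the highest at 47, and PTGES2, PTGER2 and the lower ALOX5AP promoter peak have heights from 17 to 19.

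Both members of the receptor family with a promoter peak, PTGER2 and PTGER4, encode the prostaglandin E2 receptors that signal through cyclic AMP. Their peaks differed in size. The PTGER4 peak (chr5:40678951-40682409) had a height of 37, at rank 2529 by height with 286 peaks sharing that value, and a width at rank 114. Its total signal of 39426 was at rank 204. The PTGER2 peak (chr14:52780729-52782029) had a height of 19, at rank 11488 with 913 peaks sharing it, a width of 1301 bp at rank 3636 and a total signal of 8866 at rank 6334. PTGER4 therefore exceeded PTGER2 in each of the 3 measures. The PTGER4 peak reached 1066 bp before the start site of its gene and 2393 bp past it. The PTGER2 peak reached 294 bp before and 1007 bp past the start site, so both extended further into the gene than ahead of it. The apex lay upstream of the gene in both, by 479 bp for PTGER4 and by 113 bp for PTGER2.

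In both receptor genes, a long non-coding RNA starts on the opposite strand within the peak. The PTGER4 apex was 131 bp upstream of the start of ENSG00000289540 and thus closer to it than to PTGER4. The PTGER2 apex was 93 bp upstream of the start of ENSG00000289424. The PTGER4 window had 1 retinoid motif (GGTTCA, 116 bp from the apex) and 1 GC box, and that of PTGER2 had 2 GC boxes and no retinoid motif. Neither had another peak without a symbol close by. The nearest was 270.8 kb from PTGER4 and 430.2 kb from PTGER2. The promoter peaks most like that of PTGER4, by distance in the plane of the percentiles of height and width over all 15412 peaks, were those of UBTF (3470 bp), MROH6 (3281 bp) and ROGDI (3203 bp), all 3 with a height of 37.

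In the leukotriene branch, ALOX5 (ENSG00000012779, plus strand, chr10:45869624-45941567) encodes 5-lipoxygenase, which forms leukotriene A4. It had no promoter peak, but 3 peaks without a symbol lay inside the gene. They had heights of 26, 28 and 27 and widths of 1500, 1389 and 724 bp, respectively, so the 3 were close in height and just above the list median of 25. The first (chr10:45913685-45915184) and the second (chr10:45915823-45917211) had their apex in intron 4 and the last (chr10:45920103-45920826) in intron 6. Even the closest apex was 1079 bp from the nearest annotated start site of ALOX5, which is inside the gene. From the 5′ end of ALOX5, the 3 peaks lay 44.1 to 51.2 kb downstream. Because no promoter peak of ALOX5 exists, these peaks are outside the rule for the 12 peaks. Among the 12011 protein-coding genes that had neither a promoter peak nor an apex within 1 kb of a start site, 146 (1.22%) had 3 or more peaks over the gene. Among the 1614 genes within 1.2 times of the length of ALOX5, 40 (2.48%) had 3 or more peaks and no promoter peak.

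The motifs at the ALOX5 intron 6 peak were next to its apex. A retinoid motif was centred 2 bp and an ETS-type motif 9 bp from it, with 5 bases between them. Both are visible in capitals in the sequence above. The only other such pair, with at most 10 bases between a retinoid and an ETS-type motif, among the 12 peaks and the 3 in ALOX5 was in ALOX5AP-A, with 6 bases between them. Pairs at this distance were present in 1.80% of all peaks, 0.949% of promoter peaks and 2.55% of peaks without a symbol. This arrangement was looked for after it had been seen in these sequences.

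ALOX5AP encodes the membrane protein that presents arachidonic acid to 5-lipoxygenase, and with 6 peaks it had the most of the 10 genes. Besides a pair of promoter peaks, 4 peaks without a symbol lay within 50 kb of them. Only 8.42% of the 6546 symbols in the list stood on 2 or more peaks, and 51.5% of promoter peaks had no peak without a symbol within 50 kb. With 4 such neighbours, ALOX5AP-A was at the percentile of 93.8 among promoter peaks. ALOX5AP-A (chr13:31286885-31288105) was 37 high and 1221 bp wide (ranks 2529 and 4173). ALOX5AP-B (chr13:31309210-31309809) was 17 high and 600 bp wide (ranks 13294 and 10561). The higher of the pair was at an alternative start site, with its apex 114 bp upstream of it and 22179 bp upstream of the start of the canonical transcript. The lower one was at the canonical start site itself, with its apex 17 bp into the first exon, in the 5′ UTR.

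The 4 peaks without a symbol around ALOX5AP were spread on both sides. Upstream of the alternative start site, by 39339 and 22760 bp, were peaks with heights of 24 and 22 and widths of 914 bp (chr13:31247906-31248819) and 824 bp (chr13:31264403-31265226). Inside the gene, a peak in intron 1 (chr13:31313993-31314695) was 17 high and 703 bp wide. A peak in intron 2 (chr13:31317258-31318784) had a height of 34, at rank 3401, and a width of 1527 bp, at rank 2432. By height, ALOX5AP-A at 37 and the intron 2 peak at 34 stood above the other 4, which ran from 17 to 24. The intron 2 window held a retinoid motif 81 bp and the AP-1 letters TGACTCA 28 bp from the apex, and the peak 22760 bp upstream held a retinoid motif 36 bp from the apex. The most distant of the 4 had its centre 39132.5 bp from that of ALOX5AP-A and was the member closest to the limit of 50 kb. The nearest peak without a symbol beyond the limit was 55.6 kb from PTGES2, with a height of 23 (chr9:130834433-130835080).

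LTA4H encodes the hydrolase that makes leukotriene B4, an attractant of neutrophils. Its single promoter peak (chr12:96428754-96429822) had a height of 30, at rank 4820 with 391 peaks sharing that value, and a width of 1069 bp at rank 5348. In height it was the median of the 7 promoter peaks, and its width was below the median of all promoter peaks. The apex preceded the closest annotated start site by 67 bp and lay 121 bp upstream of the canonical one. The annotated gene begins further upstream, so that the peak lay 7.5 to 8.5 kb downstream of its 5′ end. No other peak lay over LTA4H or up to 10 kb from it. The window contained an ETS-type motif 55 bp from the apex and neither a retinoid motif nor a GC box. The nearest peak without a symbol was 73.0 kb away.

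The base composition around the apex separated ALOX5AP from the other 5 genes with promoter peaks. GC content within 150 bp of the apex was 49.5% in ALOX5AP-A and 46.5% in ALOX5AP-B, whereas it was 57.5% in LTA4H, 58.5% in PTGER4, 66.5% in PTGES2, 68.1% in PTGES3 and 75.1% in PTGER2. The ratio of observed to expected CpG dinucleotides was 0.167 and 0.190 in the ALOX5AP peaks and ran from 0.856 to 1.00 in the other 5. The ALOX5AP peaks and the other 5 did not overlap in either measure, as the plot of base composition shows. Promoter peaks of the whole list had medians of 64.8% and 0.811, and peaks without a symbol had medians of 53.8% and 0.264. A GC content under 50% together with a CpG ratio under 0.2, as in both ALOX5AP promoters, was present in 1.02% of promoter peaks and in 13.7% of peaks without a symbol. These limits lie just above the values of the ALOX5AP promoters and were not planned, so the shares are descriptive only. Conversely, the most distant peak upstream of ALOX5AP had a GC content of 73.1% and a CpG ratio of 1.05, above both medians of promoter peaks. The annotation used has no start site inside this peak, and genes of types absent from that annotation were not looked for. The other 4 peaks without a symbol had GC contents from 44.5% to 51.5%.

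**Figure D3:**
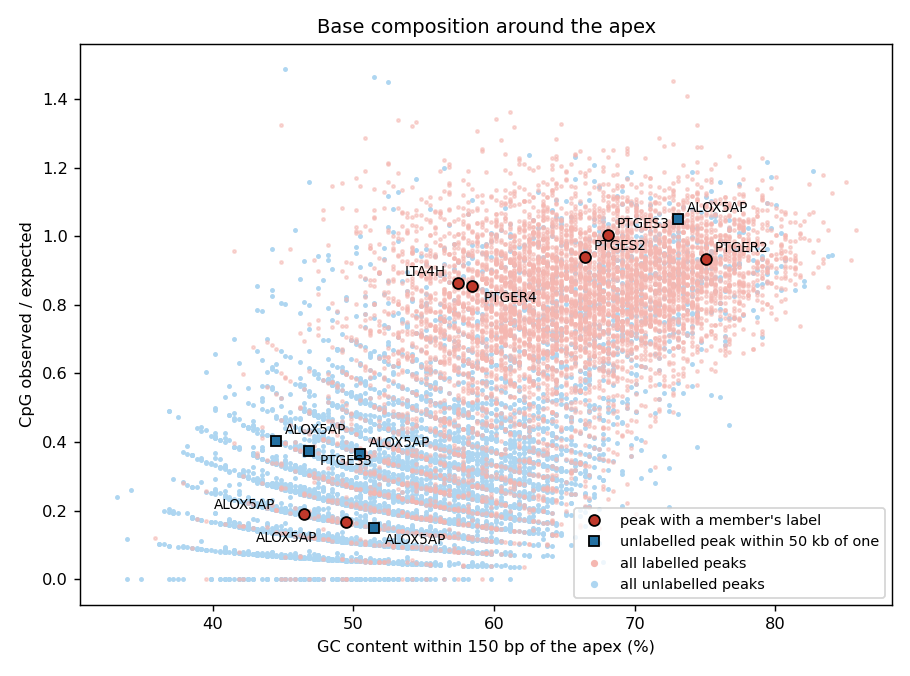
GC content in percent (x axis) and the ratio of observed to expected CpG dinucleotides (y axis) within 150 bp of the apex. Red circles are promoter peaks of the members, blue squares are peaks without a symbol within 50 kb of one, and pale points are all other promoter peaks (pink) and peaks without a symbol (blue). The 2 ALOX5AP promoter peaks lie at CpG ratios of 0.167 and 0.190 among peaks without a symbol, and the other 5 promoter peaks at 0.856 or more.

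Among the 7 promoter peaks, none held both an ETS-type motif and a GC box, and the share with both was also low among all promoter peaks, at 11.1%. A retinoid motif was present in 3 of the 7 promoter peaks (PTGES2, PTGER4 and ALOX5AP-A), compared with 37.3% of all promoter peaks and 46.5% of all peaks. This count depended on the window of 150 bp either side of the apex, being 1 of 7 at 100 bp and 4 of 7 at 200 bp. Among the 5 peaks without a symbol it was present in 3, compared with 54.5% of such peaks. These 3 include the peak near PTGES3, where the bases holding the motif are repeated in the genome. An ETS-type motif was present in 3 of 7, namely both ALOX5AP promoters and LTA4H, compared with 18.7% of all promoter peaks and 28.2% of all peaks. A GC box was present in 4 of 7, all of prostaglandin genes, compared with 71.0% of all promoter peaks. This split did not extend to the promoter peaks of leukotriene genes outside the 10, which are described below. LTC4S held 1 ETS-type motif and 1 GC box. Without an ETS-type motif, MGST3 held 1 GC box and COTL1 held 4, and MGST2 held neither motif. Direct repeats of the retinoid motif with a spacing of 0 to 10 bases, the arrangement bound by pairs of nuclear receptors, were present in none of the 12 peaks and in 1.58% of all peaks. None of the 7 promoter peaks held the AP-1 letters (TGACTCA and its reverse complement, in 4.81% of promoter peaks) or the RUNX letters (TGTGGT, in 12.1%). A match is a run of letters and not a measured binding site of any factor, and with 7 peaks a single peak is a large share.

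A wider list of 43 further genes of the pathway puts the 10 genes in context. Promoter peaks were found for 5 of these 43 genes (11.6%), compared with 30.0% of all protein-coding genes. An apex within 1 kb of a start site was present for 8 (18.6%, against 39.3%) and a peak inside or up to 10 kb from the gene for 21 (48.8%, against 53.3%). Over all 53 genes, 11 had a promoter peak (20.8%). The count of 6 of 10 among the members and of 5 of 43 among the others thus lay on opposite sides of the share of all genes, and the members had been picked with such results known.

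By step of the pathway, as drawn in the chart of the 53 genes, the 4 enzymes that convert leukotriene A4 all had a promoter peak. The share among all protein-coding genes was 30.0%. Besides LTA4H, these enzymes were LTC4S, MGST2 and MGST3, which can join leukotriene A4 to glutathione. This was the only step with a promoter peak for each gene, but 4 genes are few and no test was run. LTC4S had a peak 33 high and 2800 bp wide, at rank 288 by width, second to PTGER4 among the promoter peaks of the 53 genes. MGST2 and MGST3 both had a height of 26, with widths of 837 and 1542 bp. Of the 6 genes of lipoxygenases and their partners, COTL1, whose product binds 5-lipoxygenase, had a promoter peak with a height of 27 and 3 further peaks in intron 2, with heights of 21, 32 and 25. Of 5 phospholipase genes, PLA2G6 had one (height 35, width 884 bp). Among 8 prostanoid synthases PTGES2 and PTGES3, and among 9 prostanoid receptors PTGER2 and PTGER4, had a promoter peak. These counts, and those of the lipoxygenase and phospholipase steps, are near the share of 30.0% among all protein-coding genes, given so few genes in a step. The further prostaglandin E synthase gene PTGES and the receptor genes PTGER1 and PTGER3 had no promoter peak and no apex within 1 kb of a start site.

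No promoter peak was found for any of the 6 genes of prostaglandin transport and breakdown, the 7 of leukotriene export and breakdown or the 6 leukotriene and related receptors. The share among all protein-coding genes was 30.0%. A peak inside or up to 10 kb from the gene was present for 3, 4 and 4 of them, respectively, against 53.3% of protein-coding genes. Some of these genes still had a peak at a start site. At LTB4R, the high-affinity receptor of leukotriene B4, 2 peaks with apices 26 and 23 bp from start sites carried the symbol of the overlapping gene CIDEB. Their heights were 53 and 23 and their widths 787 and 2047 bp, respectively. Only the wider peak also overlaps LTB4R2. With CIDEB at both, the signal cannot be assigned to one gene. A further peak, without a symbol and 21 high, had its apex 154 bp from a start site of LTB4R. DPEP1, which cleaves leukotriene D4, had a peak without a symbol 16 bp from a start site, with a height of 28. TBXAS1, the thromboxane synthase, had 5 intronic peaks with heights from 19 to 32 and none within 1 kb of a start site, a pattern shared with ALOX5.

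**Figure D4:**
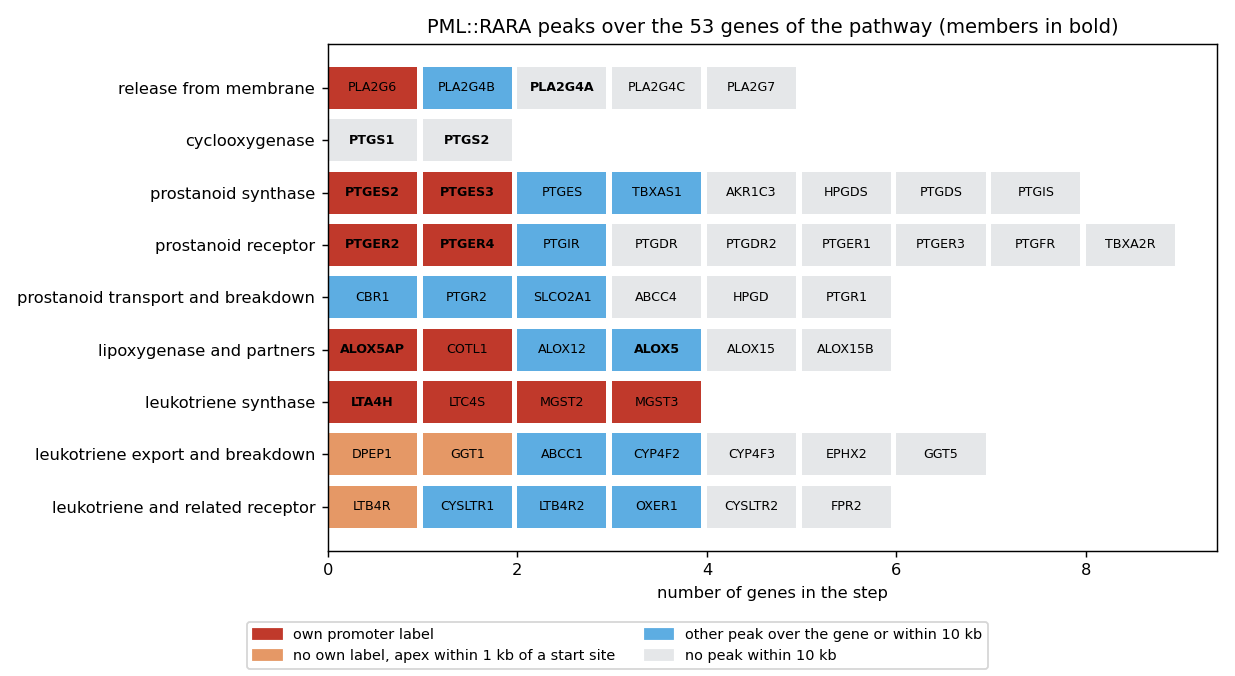
The 53 genes of the pathway by step, each box 1 gene and the x axis the number of genes in a step, with the 10 members in bold. Red marks a promoter peak with the gene's own symbol, orange an apex within 1 kb of a start site without that symbol, blue another peak inside or up to 10 kb from the gene, and grey no peak within 10 kb. Red boxes fill the leukotriene synthase step (4 of 4) and are absent from 4 steps, where the share among all protein-coding genes is 30.0%.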

How the data were processed

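Cut&Run reads were trimmed with Trimmomatic and aligned to hg19 with Bowtie2 by the authors, who removed duplicates with SAMtools, called peaks with SEACR against paired controls and kept peaks reproducible over 2 replicates at an IDR below 0.05. For each peak the authors deposited a score, the largest signal in the peak (height), and a total signal summed over it. What either column holds was read from the values, since the total was below height times width in all 15412 peaks. The list names no library and was taken as that of anti-PML-RARA in induced cells from its number of peaks, the one the study gives for that list. The authors set SEACR to norm union with the controls as background, and the sources used here do not give whether this or a scaling by library size changed the deposited values. The apex is the midpoint of the interval of largest signal, or its start in 34 peaks without an end.

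The genes named are all 10 members, pathway genes with a promoter peak, labelled neighbours within 50 kb, and the 3 promoter peaks nearest to the widest member peak in height and width percentiles. Cell type markers came from a list, and genes sharing a promoter peak with a member are named for its place. LTB4R, LTB4R2, CIDEB, DPEP1, TBXAS1, PTGES, PTGER1 and PTGER3 were added after their values were seen. Members and lists were chosen with earlier results of these data known. Percentiles split ties evenly. Ranks count from the largest. Start sites, exons and protein-coding genes were those of GENCODE release 44 mapped to GRCh37, in which 6381 of the 6546 symbols occur and 165 do not. A gene whose symbol differs there counts as having no promoter peak. Motif search and percentiles were tested on simulated data. Python 3.11.15, pandas 2.3.3, numpy 2.4.6, pysam 0.24.0 and matplotlib 3.10.9 were used. Uninduced and anti-RARA libraries were not used here. Sequences are shown for a selection of the peaks.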

Additional observations from a re-analysis of the deposited data

How the results depend on the processing

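No paired analysis was possible because the peak list gives no value for a single replicate, which also means that none could be left out. Of 22 alternatives, 12 left the value as it was or within the set limits and 10 moved it. The limits were uneven between results. A fall from 6 to 4 members counted as within them, and a change of the median height percentile from 67.5 to 65.3 as moved. The tally is therefore not a measure of how stable the results are. The count of 6 members with a promoter peak was 4 with peaks at or above the median height and 7 with any peak within 10 kb of the gene. The pathway genes rose from 5 to 8 when an apex within 1 kb of a start site replaced the symbol. The 5 peaks without a symbol near a member became 2 within 10 kb, 9 within 100 kb and 2 when peaks below the median height were dropped. The median height percentile of the 7 promoter peaks, 67.5 (54.9 for all promoter peaks), was 65.3 with total signal, 44.6 with total signal divided by width and 62.6 among promoter peaks only. The median width percentile, 76.4 (67.4 for all promoter peaks), was 72.3 with neighbouring peaks under 1 kb apart merged and 62.4 among promoter peaks only. The retinoid motif, found in 3 of 7 promoter peaks within 150 bp of the apex, was found in 1 within 100 bp and in 4 within 200 bp, while the ETS-type motif was found in 3 at each of these distances. Total signal divided by width had a median of 8.34 in the 7 promoter peaks, below the 9.08 of all promoter peaks. The reason for these shifts was not tested. Depth is unknown, so a gene without a peak may lie below the detection limit.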
